A study of Mus musculus with 12 samples.

Results

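The genes described here encode the protein components of the cytosolic ribosome in the mouse retina after injury. They were chosen by symbol, as genes named Rpl, Rps, Rplp or Rpsa with no pseudogene suffix, and by a minimum of 10 counts in 3 of 9 libraries. The name rule matched 80 genes, and 77 of them passed the count minimum, out of 25655 genes in all. These 77 members comprise 46 genes of the large subunit and 31 of the small subunit. The 3 that did not pass were tissue-restricted paralogs. Rpl10l was at 0 counts in all 9 libraries, Rpl39l reached 1 count in a pair of fluvastatin libraries and was at 0 elsewhere, and Rpl3l held 1 to 4 counts per library.

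The study asked how injected agents change the retina after optic nerve crush (ONC), in which the optic nerve is crushed behind the eye and retinal ganglion cell axons are severed. C57BL/6 mice (C57BL/6J in the study's methods) aged 8 to 10 weeks received ONC and a single intravitreal injection of PBS, of fluvastatin, of matrix-bound nanovesicles (MBV), or of MBV and fluvastatin together, and whole retinas were taken for total RNA sequencing at day 2. Fluvastatin is a statin, an inhibitor of HMG-CoA reductase, and the MBV were lipid vesicles isolated from porcine urinary bladder extracellular matrix. The libraries used form 3 groups of 3, PBS, fluvastatin and MBV, and the combined treatment was not analysed here. All 3 groups, the PBS controls included, had the injured nerve, so no group stands for an uninjured retina. The PBS libraries carry numbers from one set of 6 in the labels and the fluvastatin and MBV libraries share numbers from another set of 6. In each comparison with PBS the treatment and the library number set therefore cannot be told apart, whereas fluvastatin and MBV were compared within one set. The study calls its replicates biological, but the labels tie no library to an animal and do not say whether retinas were pooled, so p-values measure the spread between these samples.

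The cytosolic ribosome joins a small subunit, which reads the mRNA, to a large subunit, which forms peptide bonds, and each subunit is built from ribosomal RNA and many proteins that are mostly present in a single copy. The mRNAs of these proteins carry a terminal oligopyrimidine (TOP) tract at the start, a run of C and T letters in the DNA through which mTORC1 signalling and the RNA-binding protein LARP1 control their translation and stability. Their summed level is commonly read as a measure of a cell's capacity for protein synthesis, and several single members, such as Rplp0, Rpl13a and Rps18, are used as reference genes in quantitative PCR.

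Letters that could form a TOP tract were looked for around the annotated transcription starts of RefSeq (GRCm38.p6), which held 57 of the 77 members. The window ran from 10 bases before the start to 20 bases after it, and the tract was defined as a C followed by at least 5 letters that were each C or T, on the transcribed strand only. It was present in 34 of the 57 members (59.6%) and in 6735 of 27025 genes of the same table (24.9%). The windows of 8 members that the comparisons turn on are printed, with the tract in capitals where one was found. They are a choice and do not stand for all calls. Rpl23 and Rps15, also called higher with both treatments, had no tract and are not printed. Rpl28, Rpl7a, Rps24, Rps6 and Rpl35 were called higher with both treatments, Rpl27 and Rps13 were called lower with both, and Rps27 was called lower with MBV.
Rpl28 (chr7:4792955-4792984, + strand): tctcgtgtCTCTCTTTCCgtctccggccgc
Rpl7a (chr2:26910797-26910826, + strand): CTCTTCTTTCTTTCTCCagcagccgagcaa
Rps24 (chr14:24490668-24490697, + strand): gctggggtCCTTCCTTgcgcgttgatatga
Rps6 (chr4:86857348-86857377, - strand): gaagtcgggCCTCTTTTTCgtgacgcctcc
Rpl35 (chr2:39005112-39005141, - strand): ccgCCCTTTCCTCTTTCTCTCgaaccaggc
Rpl27 (chr11:101442235-101442264, + strand): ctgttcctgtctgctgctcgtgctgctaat
Rps13 (chr7:116334171-116334200, - strand): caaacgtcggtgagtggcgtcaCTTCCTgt
Rps27 (chr3:90213629-90213658, - strand): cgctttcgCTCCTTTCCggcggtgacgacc
Of the members with a window, the tract was found in 11 of the 14 called higher with fluvastatin and in 8 of the 10 called higher with MBV. It was found in 1 of the 2 called lower with fluvastatin and in 6 of the 11 called lower with MBV. Of the members not called, 22 of 41 held it with fluvastatin and 20 of 36 with MBV. The difference between these shares was not tested. A match, called the tract here, is a description of these letters and is not shown to begin the mRNA. With the annotated start as position 1, that of Rps13 began at position 13 and that of Rpl11 at 15. That of Rpl10a, of 7 bases from position -8, ended before the start. The annotated start can lie some bases from the start used in the retina. Rpl27 had no tract in its window and Rps27, which was also lower with MBV, had one of 9 bases across the annotated start.

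The libraries held 21349516 to 30992040 counts on genes, and every member had at least 123 counts in each library. Markers of bipolar cells (6 genes) summed to 1382 to 1738 CPM (counts per 1000000 counts of the library, scaled with TMM factors) over the 9 libraries and markers of Müller glia (6 genes) to 1517 to 3460 CPM, so cell types of the labelled tissue were present in every library. Retinal markers also differed between groups: Müller glia markers were at 2807 to 3460 CPM in PBS, 1655 to 2762 in fluvastatin and 1517 to 2710 in MBV, with 4 and 2 of the 6 called lower. DESeq2 called 2 lower in each comparison. Glul was the largest part of these sums, at 1915 to 2592 CPM in PBS and 598 to 1965 in MBV, and 1 and 2 of the 6 had a log2 fold change above 0. Over all genes tested 9.36% were called higher and 10.2% lower with fluvastatin, and 12% and 14.1% with MBV. Of 10 photoreceptor markers 1 was called higher and 2 lower with fluvastatin and 5 lower with MBV, and of 6 ganglion cell and 5 amacrine cell markers 2 each were called higher with fluvastatin. Markers of cells beside the neural retina differed as well. Summed lens markers (6 genes) were at 1.52 to 5.82 CPM in PBS, 2.21 to 19.7 in fluvastatin and 58.7 to 142 in MBV, and 5 of the 6 were called higher in MBV than in PBS. Erythroid markers (5 genes) were at 6.50 to 8.25 CPM in PBS, 13.3 to 17.0 in fluvastatin and 14.0 to 17.2 in MBV, with 3 called higher in each comparison. Pigment cell markers (6 genes) were at 115 to 152, 68.5 to 92.3 and 49.8 to 97.9 CPM, with 4 called lower and 1 higher in each comparison. Monocyte markers (6 genes) were at 7.03 to 17.3, 3.52 to 6.47 and 3.88 to 72.7 CPM, with 1 called lower with fluvastatin, and MBV replicate 3 stood apart, with Lyz2 at 55.9 CPM against 6.07 and 3.20 in the other two MBV libraries. Hba-a1 and the lens marker Crygs were at 0 in 1 library each, and Ly6c2, Cd209a and Chil3 of the monocyte list in 1 to 3. Their part in the results on ribosomal protein genes was not tested.

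In PBS-treated retinas the members were expressed over a wide range. Mean levels ran from 7.56 to 303 CPM with a median of 82.1, and 75 of the 77 members lay above 22.2 CPM, the median of the 15322 genes at the same count minimum. Levels were compared between genes only per kilobase, with the canonical GENCODE M39 transcript inside the deposited gene span as the length. On that scale Rplp1, an acidic protein of the stalk that recruits elongation factors, stood highest at 310.3, 292 and 352 CPM per kb in the 3 PBS libraries. Rps15 followed at 285, 284 and 289.9 CPM per kb. Rps29, Rpl23a, which lies at the exit of the peptide tunnel, and Rpl9 came next, with means of 241, 228 and 219 CPM per kb. The ranges of Rplp1 and Rps15 did not overlap, those of Rps29 and Rpl23a did, and those of Rpl23a and Rpl9 did too.

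At the other end stood Rps27l, a paralog of Rps27 known as a p53 target, at 14.3, 14.4 and 16.8 CPM per kb. Rps20, at a mean of 21.2 CPM per kb, and Rps15a, at 23.6, followed. Both have canonical models of 3706 and 5179 bases against a median of 886 bases over the members, so their level per kilobase depends on how much of that model is used. Rpl21 was at 32.0 and Rpl32 at 36.3 CPM per kb. The plot of levels per kilobase shows most members of both subunits between 50 and 200 CPM per kb.

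**Figure D1:**
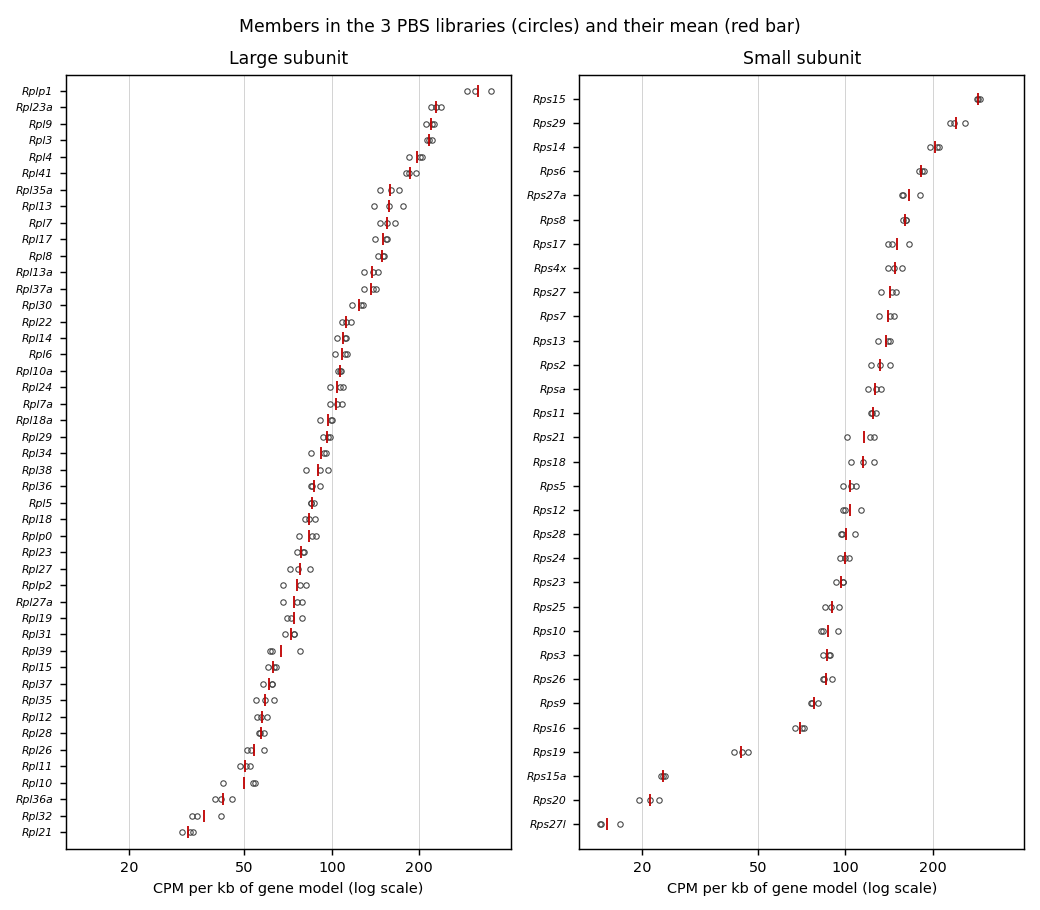
Level of each member in the 3 PBS libraries, in CPM per kilobase of gene model on a log axis, with large-subunit genes on the left and small-subunit genes on the right; circles are libraries and red bars their mean. Rplp1 (318 CPM per kb) and Rps15 (286) lie at the top and Rps27l (15.1) at the bottom.

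Together the members took 0.768% ± 0.035 of all gene counts in PBS (SD, n = 3), 0.810% ± 0.074 in fluvastatin (n = 3) and 0.777% ± 0.014 in MBV (n = 3). The values by library were 0.769%, 0.732% and 0.803% in PBS, 0.727%, 0.866% and 0.836% in fluvastatin, and 0.762%, 0.778% and 0.791% in MBV. The groups overlapped, and the spread within fluvastatin, from 0.727% to 0.866%, was wider than the distance between any 2 group means. In bulk samples a change in the number of cells of a type and a change in RNA per cell cannot be told apart, which holds for every level given here.

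Much of the spread within a group was shared by the members. Among the PBS libraries replicate 2 was the lowest of the 3 for 69 of 77 members and replicate 3 the highest for 62. Among the fluvastatin libraries replicate 1 was the lowest for 69 members and replicate 2 the highest for 52. Among the MBV libraries replicate 3 was the highest for 67 members and replicate 1 the lowest for 47. MBV replicate 3 is also the library with the highest monocyte markers, and without it 34 members were called against PBS (10 higher and 24 lower). The median coefficient of variation over the members was 5.13% in PBS, 10.3% in fluvastatin and 4.89% in MBV. Over the 10351 genes in the same range of CPM it was 4.39%, 5.32% and 5.13%. The members' median was above that of these genes in PBS and fluvastatin and below it in MBV, and fluvastatin replicate 1 stood below the other two.

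**Figure D2:**
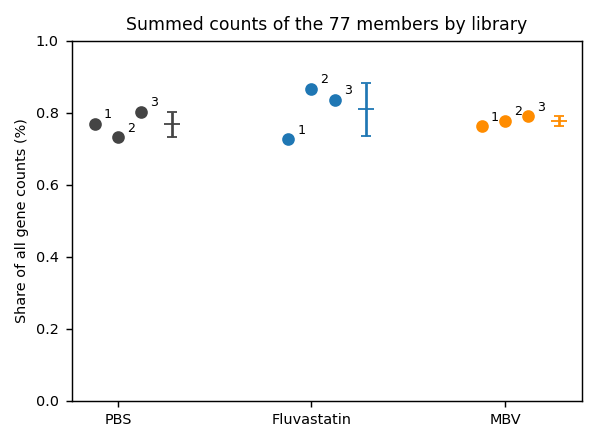
Share of all gene counts that fell on the 77 members (y axis, percent, from 0), by library; numbers are replicates and bars are mean ± SD over 3 libraries. Fluvastatin replicate 1, at 0.727%, is the lowest of all 9 libraries and fluvastatin replicate 2, at 0.866%, the highest, so the 3 groups overlap.

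Fluvastatin against PBS. Compared with PBS, the members did not move as one group: genes of both subunits, led by Rpl28, Rpl13a and Rpl7a, were higher, and Rpl27, Rps20, Rps13 and Rps14 were lower. Of the 77 members 16 were called higher (20.8%) and 4 lower (5.19%) by the quasi-likelihood test of edgeR, with p adjusted over all genes by the method of Benjamini and Hochberg (adjusted p under 0.05). Of the 18818 genes tested 9.36% were called higher and 10.2% lower, and of the 15322 genes at the same count minimum 11.4% and 12.4%. The share of members called higher lay above this background and the share called lower below it. The other 57 members were not called. The median log2 fold change of the members was 0.07 (quartiles -0.07 and 0.20), against -0.01 over all genes tested. No member changed by 2-fold, and the largest difference was 37.1%.

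The members called higher were led by Rpl28, a large-subunit protein. Its level was 81.3, 77.9 and 78.8 CPM in PBS and 98.0, 126 and 102 CPM in fluvastatin, a log2 fold change of 0.46 ± 0.08 (SE, adjusted p = 0.00511 by edgeR). All 3 fluvastatin libraries lay above all PBS libraries, and replicate 2 stood apart from the other two. Rpl13a, which also has a role outside the ribosome in silencing inflammatory mRNAs, was at 145, 135 and 151 CPM in PBS and 159, 211 and 207 CPM in fluvastatin. It rose by 0.42 ± 0.09 on the log2 scale (edgeR adjusted p = 0.0115), with fluvastatin replicate 1 close to the PBS range, and without fluvastatin replicate 2 its adjusted p was 0.0634. Rpl7a, another large-subunit protein, was at 95.0, 89.9 and 99.1 CPM in PBS and 122, 139 and 116 CPM in fluvastatin, a log2 fold change of 0.41 ± 0.07 (edgeR adjusted p = 0.00296). The groups did not overlap.

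Rpl21 was higher in each fluvastatin library, at 75.2, 81.1 and 79.4 CPM, than in any PBS library, at 61.5, 56.5 and 60.1 CPM, and rose by 0.40 ± 0.05 on the log2 scale (edgeR adjusted p = 0.00128). Rps24, a small-subunit protein needed for processing of its ribosomal RNA, was at 169, 163 and 175 CPM in PBS and 193, 246 and 217 CPM in fluvastatin. It rose by 0.37 ± 0.08 (edgeR adjusted p = 0.00773). Rps6, the small-subunit protein that S6 kinase phosphorylates downstream of mTORC1, was at 164, 157 and 161 CPM in PBS and 186, 225 and 206 CPM in fluvastatin, and rose by 0.36 ± 0.06 (edgeR adjusted p = 0.00405). For both small-subunit genes every fluvastatin library lay above every PBS library.

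Among the 4 members called lower, Rpl27 of the large subunit differed most. It was at 56.0, 52.6 and 61.5 CPM in PBS and 39.5, 42.5 and 44.3 CPM in fluvastatin, a log2 fold change of -0.43 ± 0.07 (edgeR adjusted p = 0.00247). The other three were small-subunit genes. Rps20 was at 78.6, 72.5 and 84.5 CPM in PBS and 57.6, 67.3 and 69.8 CPM in fluvastatin and fell by 0.28 ± 0.08 on the log2 scale (edgeR adjusted p = 0.0318). Rps13 was at 83.6, 76.6 and 82.7 CPM in PBS and 62.2, 70.4 and 74.2 CPM in fluvastatin and fell by 0.23 ± 0.07 (edgeR adjusted p = 0.0351). Rps14, on the platform of the small subunit, was at 123, 117 and 125 CPM in PBS and 91.4, 108 and 113 CPM in fluvastatin and fell by 0.23 ± 0.07 (edgeR adjusted p = 0.0459). In all 4 genes the groups did not overlap, and the calls of the 3 small-subunit genes were lost when single libraries were left out. The adjusted p of Rps20 was then 0.105 without PBS replicate 1, 0.114 without PBS replicate 3 and 0.076 without fluvastatin replicate 2. That of Rps13 was 0.144 and 0.1 without PBS replicates 1 and 3, and 0.0536 and 0.0873 without fluvastatin replicates 1 and 2. That of Rps14 was 0.143, 0.0663 and 0.127 without PBS replicates 1, 2 and 3, and 0.0565 and 0.0927 without fluvastatin replicates 1 and 2.

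By subunit, 10 of 46 large-subunit genes were called higher and 1 lower, with a median log2 fold change of 0.09. Of 31 small-subunit genes 6 were called higher and 3 lower, with a median of 0.03. The difference between subunits was not tested. The 3 fluvastatin and 3 PBS libraries did not overlap for 18 members that were higher (23.4%) and 7 that were lower (9.09%), where 20.3% and 22.5% of the genes at the count minimum did not overlap in each direction. The number of calls depended on single libraries: it was 35 without fluvastatin replicate 1, 11 without fluvastatin replicate 2 and 11 without PBS replicate 1. All 20 called members kept their direction in each of these 6 fits, and 10 of them were called in every one, among them Rpl28, Rpl7a, Rpl21, Rps24, Rps6 and Rpl27.

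**Figure D3:**
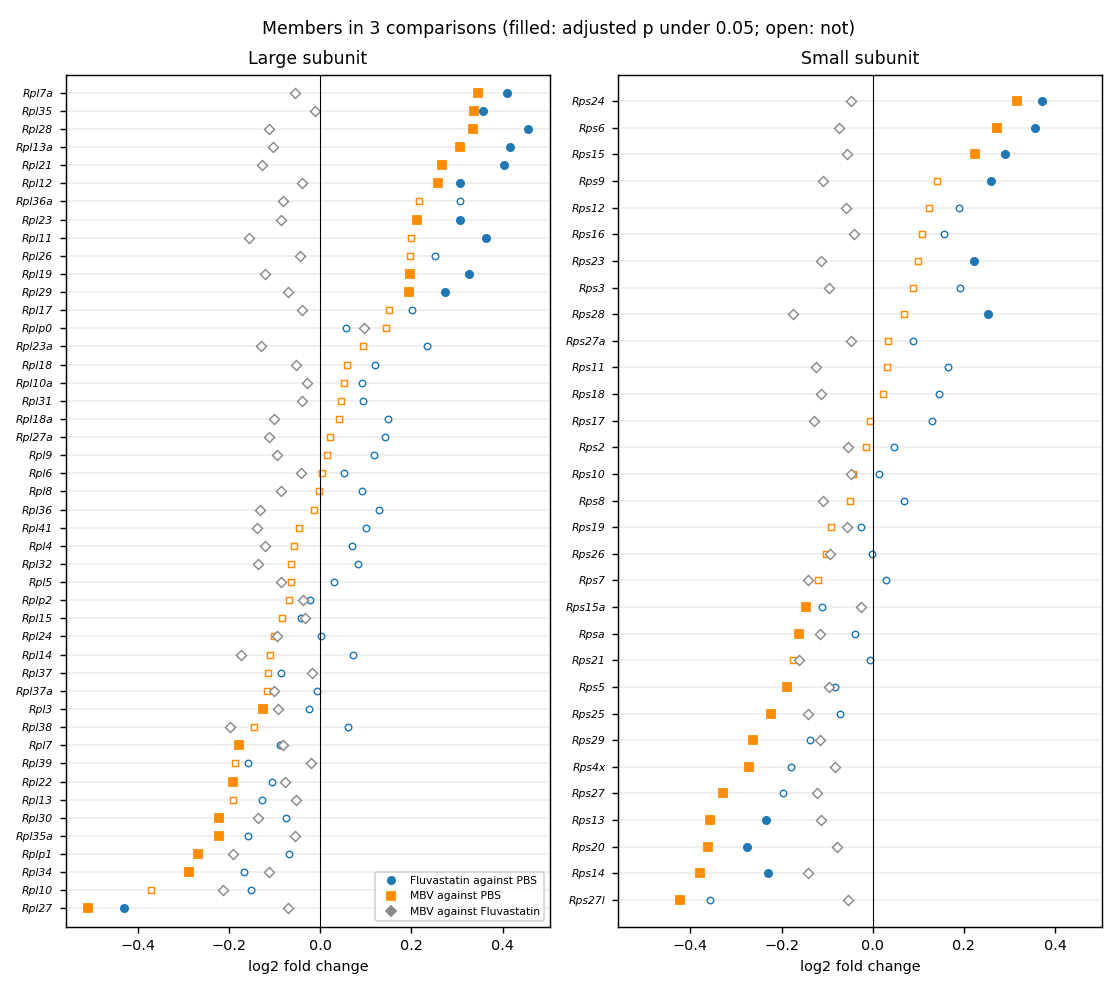
Log2 fold change (x axis) of every member in fluvastatin against PBS (circles), MBV against PBS (squares) and MBV against fluvastatin (diamonds), with large-subunit genes on the left and small-subunit genes on the right, ordered by the MBV against PBS value; filled symbols have an edgeR adjusted p under 0.05. Differences from PBS reach from -0.51 to 0.46, whereas those between MBV and fluvastatin lie between -0.21 and 0.10 and none is filled.

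MBV against PBS. With MBV more members were called than with fluvastatin, and more of them were lower than higher. Of the 77 members 12 were called higher (15.6%) and 19 lower (24.7%) by the same edgeR test and adjustment. Over the 18897 genes tested 12% were called higher and 14.1% lower, and over the 15322 genes at the same count minimum 14.7% and 17.2%. The share called higher was close to this background and the share called lower was above it. The median log2 fold change of the members was -0.04 (quartiles -0.18 and 0.11), against 0.01 over all genes tested, and without PBS replicate 3 it was 0.02. The split between directions depended on the scaling: with library totals in place of TMM factors 15 members were called higher and 11 lower, and with one fit of all 9 libraries 11 and 10. In total 16 members were called without PBS replicate 1 and 20 without MBV replicate 1.

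Rpl7a, Rpl35, Rpl28, Rps24 and Rpl13a showed the largest rises. Rpl7a was at 116, 120.3 and 127 CPM in MBV, above the PBS range of 89.9 to 99.1, and rose by 0.35 ± 0.05 on the log2 scale (edgeR adjusted p = 0.00192). Rpl35, which lies beside the exit of the peptide tunnel, was at 59.7, 51.8 and 55.7 CPM in PBS and 72.1, 65.2 and 75.2 CPM in MBV, a rise of 0.34 ± 0.07 (edgeR adjusted p = 0.00776). Rpl28 was at 97.9, 99.4 and 105 CPM in MBV, also above every PBS library, and rose by 0.34 ± 0.05 (edgeR adjusted p = 0.0013). Rps24, at 213, 210.4 and 213 CPM in MBV, had the closest replicates of all members in that group and rose by 0.32 ± 0.04 (edgeR adjusted p = 0.00106). Rpl13a was at 174, 178 and 186 CPM and rose by 0.31 ± 0.05 (edgeR adjusted p = 0.00297). None of these 5 genes overlapped with PBS.

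Rpl27 showed the largest fall. It was at 40.6, 38.8 and 40.8 CPM in MBV against 52.6 to 61.5 CPM in PBS, a log2 fold change of -0.51 ± 0.06 (edgeR adjusted p = 0.000897), so its level fell by 29.8%. Rps27l was at 7.12, 7.20 and 8.36 CPM in PBS and 5.01, 5.62 and 6.42 CPM in MBV and fell by 0.42 ± 0.13 (edgeR adjusted p = 0.0358). It is the least abundant member, and its adjusted p was 0.0729 to 0.113 when PBS replicate 1, 2 or 3 or MBV replicate 1 or 2 was left out. Rps14 was at 92.8, 89.7 and 100.2 CPM in MBV and fell by 0.38 ± 0.05 (edgeR adjusted p = 0.00134). Rps20 was at 58.0, 63.2 and 63.4 CPM in MBV and fell by 0.36 ± 0.06 (edgeR adjusted p = 0.00376). Rps13 was at 65.3, 61.6 and 64.0 CPM in MBV and fell by 0.36 ± 0.05 (edgeR adjusted p = 0.00159). Every MBV library lay below every PBS library in these 5 genes.

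By subunit, of the 31 small-subunit genes 11 were called lower and 3 higher (median log2 fold change -0.05), and of the 46 large-subunit genes 8 were called lower and 9 higher (median -0.01). The difference between subunits was not tested. The groups did not overlap for 19 members that were higher and 19 that were lower (24.7% each), where 23.6% and 24.9% of the genes at the count minimum did not overlap in each direction. All 31 called members kept their direction when any library was left out, and 15 were called in all 6 of these fits, including Rpl27, Rps13, Rps14, Rps20, Rps24, Rpl7a and Rpl28.

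The 2 comparisons with PBS share the 3 PBS libraries and the library number set of the treated samples, so likeness between them is no independent result. The values side by side were 0.46 and 0.34 for Rpl28, 0.41 and 0.35 for Rpl7a, 0.37 and 0.32 for Rps24, and -0.43 and -0.51 for Rpl27 (log2 fold change with fluvastatin and with MBV). Over all 15322 genes at the count minimum, the log2 fold change against PBS was related to the GC content of the canonical transcript, with a Spearman rank correlation of 0.39 for fluvastatin and 0.36 for MBV. For MBV against fluvastatin, within one library number set, it was 0.06. Over the 77 members it was 0.12, 0.07 and -0.13 in the 3 comparisons. The members called higher with fluvastatin had a median GC content of 50.6%, those called lower 53.1% and the others 50.6%. With MBV these medians were 51.2%, 50.6% and 50.6%.

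**Figure D4:**
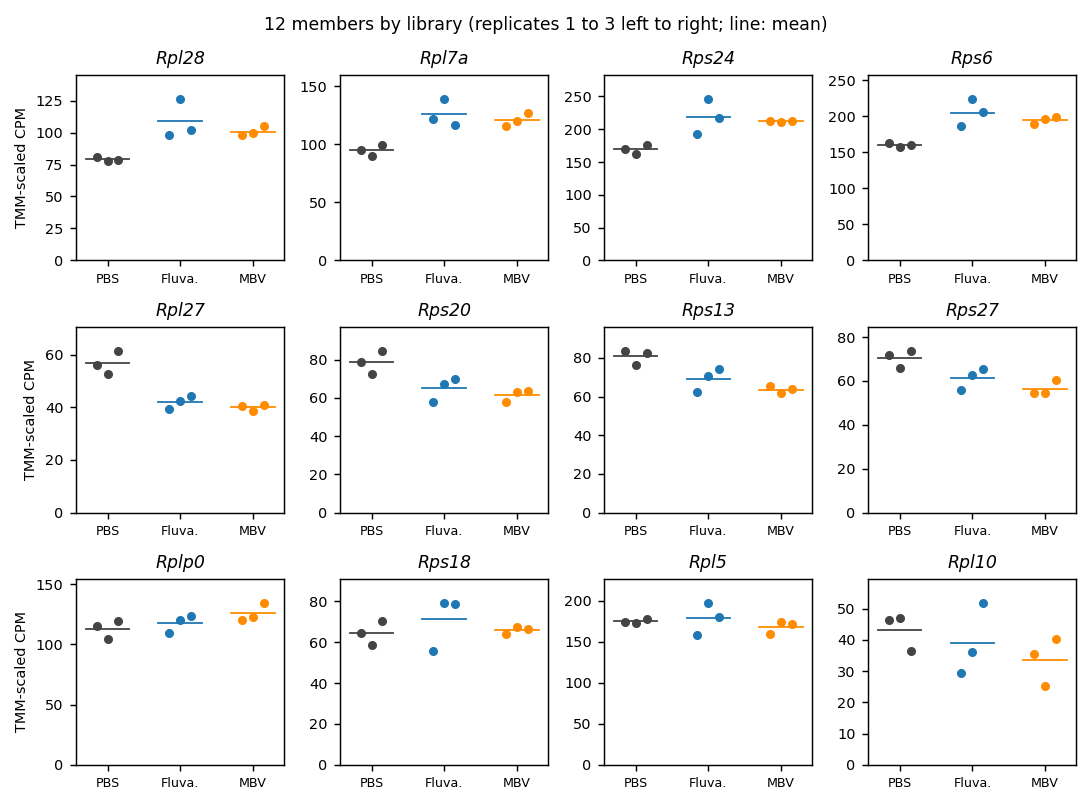
TMM-scaled CPM (y axis, from 0) of 12 members in the 3 PBS, 3 fluvastatin and 3 MBV libraries; points are replicates and lines are means. The top row shows 4 members above PBS with both treatments, the middle row 4 members below PBS, and the bottom row Rplp0, Rps18, Rpl5 and Rpl10, none of which was called.

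MBV against fluvastatin. Within one library number set the members differed far less from gene to gene. No member was called by edgeR's quasi-likelihood test, where 11 of 18721 genes (0.0588%) were called in either direction. At an unadjusted p under 0.05 there were 5 members by edgeR and 5 by DESeq2, which also called none after adjustment. The estimates lay mostly below 0: 76 of 77 members had a log2 fold change below 0 (98.7%), against 48.9% of the genes at the count minimum. Members shared much of their spread between libraries, so these are not 77 separate results. The shift was not particular to the members. Of 76 nuclear genes for oxidative phosphorylation subunits 73 were below 0 (median -0.13). Of 78 mitochondrial ribosomal protein genes 61 were (median -0.08), and of 17 translation factors and other TOP mRNAs 14 (median -0.07). Of 31 ribosome biogenesis genes 20 were below 0, of 13 RNA polymerase I genes 6 and of 18 mTORC1 genes 8. No gene of these lists was called. The median log2 fold change of the members was -0.09 (quartiles -0.12 and -0.05), against 0.01 over all genes tested. The interquartile range was 0.07 over the members and 0.19 over the genes at the count minimum. The comparisons with PBS gave 0.27 and 0.28 over the members and 0.33 and 0.38 over those genes, so the range was narrower here for both. The size of the shift depended on the fluvastatin libraries, since the median was -0.16 without fluvastatin replicate 1 and -0.03 without fluvastatin replicate 2. By library the summed level of the members was 7332, 8777 and 8379 CPM in fluvastatin and 7446, 7582 and 8002 CPM in MBV. The groups overlapped, so a lower level with MBV is not shown between libraries.

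Since no member was called, the largest differences are given by size. Rpl10 was at 29.5, 36.0 and 51.8 CPM in fluvastatin and 35.6, 25.2 and 40.2 CPM in MBV (log2 fold change -0.21 ± 0.21, edgeR adjusted p = 0.725). Rpl38 was at 45.7, 49.2 and 45.9 CPM in fluvastatin and 37.7, 39.5 and 45.6 CPM in MBV (-0.20 ± 0.08, edgeR adjusted p = 0.417). Rplp1, Rps28 and Rpl14 had log2 fold changes of -0.19 ± 0.09, -0.18 ± 0.07 and -0.17 ± 0.06. Rplp0 was the single member above 0, at 0.10 ± 0.06. The groups did not overlap for 3 members, Rpsa, Rpl14 and Rpl38, all lower with MBV (3.90%), where 9.18% of the genes at the count minimum did not overlap in that direction and 9.18% in the other. No member was higher in all MBV libraries.

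**Figure D5:**
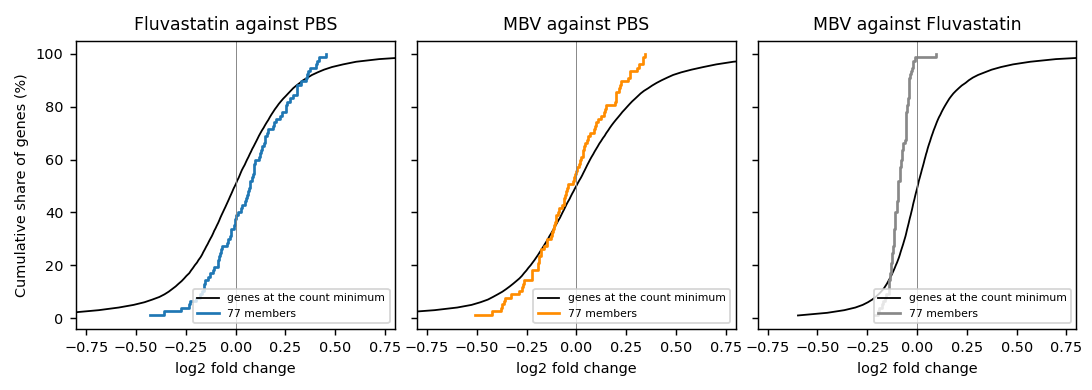
Cumulative share of genes (y axis, percent) against log2 fold change (x axis) in the 3 comparisons, for the 77 members (coloured or grey steps) and for the 15322 genes at the same count minimum (black). The members spread about 0 in both comparisons with PBS (medians 0.07 and -0.04) and lie in a narrow band left of 0 between MBV and fluvastatin (median -0.09).

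Members with known roles of their own did not share one direction. Rplp0, Rplp1 and Rplp2 form the stalk. Rplp0 was at 116, 104 and 119.5 CPM in PBS, 109, 121 and 124 in fluvastatin and 121, 123 and 134 in MBV, with log2 fold changes of 0.06 ± 0.06 and 0.14 ± 0.06 against PBS that were not called. Rplp1 was at 155, 146 and 176 CPM in PBS and 127, 135 and 136 in MBV, and fell by 0.27 ± 0.07 (edgeR adjusted p = 0.0162, and 0.0686 without MBV replicate 1), while with fluvastatin it overlapped with PBS (-0.07 ± 0.10). Rplp2 was not called in either comparison (-0.02 ± 0.07 and -0.07 ± 0.08). The difference between the stalk genes was not tested.

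Rpl5 and Rpl11 bind 5S ribosomal RNA together and restrain Mdm2, the ligase for p53, when ribosome assembly fails. Rpl5 overlapped between all groups, with log2 fold changes of 0.03 ± 0.07 for fluvastatin and -0.06 ± 0.04 for MBV. Rpl11 was at 64.9, 59.9 and 62.8 CPM in PBS, 78.2, 86.5 and 76.8 in fluvastatin and 71.3, 66.7 and 78.8 in MBV. It rose with fluvastatin by 0.36 ± 0.06 (edgeR adjusted p = 0.00282). With MBV it was 0.20 ± 0.07 higher and just missed the threshold (edgeR adjusted p = 0.0514), although no MBV library overlapped with PBS. Rpl26, which binds the p53 mRNA, was 0.25 ± 0.09 and 0.20 ± 0.07 higher, with adjusted p of 0.0634 and 0.0729 by edgeR.

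Rpsa, also known as a laminin receptor at the cell surface, was at 247, 231 and 257 CPM in PBS, 230.1, 253 and 233 in fluvastatin and 219, 222 and 220.0 in MBV. It fell with MBV by 0.16 ± 0.04 (edgeR adjusted p = 0.0278) and was -0.04 ± 0.05 with fluvastatin. The call with MBV was lost without PBS replicate 1 or 3 or MBV replicate 1 or 2 (adjusted p of 0.104, 0.0825, 0.0883 and 0.0574). Rps3, at the mRNA entry channel, was 0.19 ± 0.07 and 0.09 ± 0.05 and was not called. Rps27a, made as a fusion with ubiquitin, was 0.09 ± 0.08 and 0.03 ± 0.06 and was not called. Rps18 overlapped between all groups, with 0.15 ± 0.12 and 0.02 ± 0.06. Of the 3 reference genes for quantitative PCR, Rplp0 and Rps18 were thus not called in any comparison and Rpl13a was called higher in both comparisons with PBS.

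Some members have a second gene that encodes a close copy, and the values of these pairs follow. Rps27 fell with MBV, from 71.7, 65.7 and 73.7 CPM in PBS to 54.6, 54.3 and 60.3 (-0.33 ± 0.06, edgeR adjusted p = 0.00475), as did its paralog Rps27l. Rpl22, at 65.5, 63.2 and 68.3 CPM in PBS and 58.3, 57.6 and 57.7 in MBV, fell by 0.19 ± 0.05 (edgeR adjusted p = 0.016, and 0.0633 without PBS replicate 1). Its paralog Rpl22l1, which lies outside the name rule, fell by 0.55 ± 0.10 (edgeR adjusted p = 0.00426). Rpl7 fell with MBV by 0.18 ± 0.05 (edgeR adjusted p = 0.0273), where Rpl7l1 was 0.17 ± 0.06 higher and not called (edgeR adjusted p = 0.0583). The call on Rpl7 was lost without PBS replicate 1 or 3 or MBV replicate 1 or 2 (adjusted p of 0.0735 to 0.0865). Rpl3 fell with MBV by 0.13 ± 0.04 (edgeR adjusted p = 0.0484), and its adjusted p was 0.081 to 0.2 without any single PBS library or MBV replicate 1 or 2. Rpl36a was at 19.2, 20.2 and 22.1 CPM in PBS, 23.0, 29.4 and 23.7 in fluvastatin and 22.7, 22.4 and 26.9 in MBV. All its treated libraries lay above PBS (0.31 ± 0.10 and 0.22 ± 0.09), but it was not called (edgeR adjusted p = 0.0509 and 0.0954). Its relative Rpl36al was at -0.07 ± 0.07 and -0.11 ± 0.06 and was not called, nor was Rpl39, at -0.16 ± 0.11 and -0.19 ± 0.10. The partners Rpl3l and Rpl39l did not reach the count minimum. With fluvastatin none of these 10 genes was called by edgeR, and Rps27, at an unadjusted p of 0.0157, Rps27l, at 0.013, and Rpl36a, at 0.01, were under 0.05 before adjustment. Rps4x, also planned as a variant to be named, fell with MBV from 143.6, 136.5 and 152.3 CPM in PBS to 121.5, 119.9 and 118.9. The log2 fold change was -0.27 ± 0.05 (edgeR adjusted p = 0.0036), and the call was kept in all 6 fits that left out a library. With fluvastatin Rps4x was -0.18 ± 0.09 and was not called (edgeR adjusted p = 0.209). The difference between the members of a pair was not tested.

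The subunit genes Fau, Rack1 and Rps3a1 have names that the rule does not match. Fau, which encodes a small-subunit protein fused to a ubiquitin-like protein, rose with fluvastatin from 83.4, 85.3 and 85.9 CPM to 96.1, 128 and 107 CPM (0.38 ± 0.09, edgeR adjusted p = 0.0132, and 0.0574 without PBS replicate 1) and was 0.15 ± 0.06 with MBV. Rack1, the scaffold on the head of the small subunit, fell with MBV by 0.22 ± 0.05 (edgeR adjusted p = 0.0123) and was -0.15 ± 0.08 with fluvastatin. Rps3a1 was not called in any comparison.

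The other genes of the translation machinery also split. A list by name of translation factors and other TOP mRNAs held 17 genes, whose start windows are not given here. Of these, 2 were called higher and 2 lower with fluvastatin (11.8% each, median log2 fold change -0.02). With MBV 3 were called higher and 6 lower (17.6% and 35.3%, median -0.04). These and the following shares stand beside 9.36% higher and 10.2% lower over all genes tested with fluvastatin, and 12% and 14.1% with MBV. Over the 15322 genes at the count minimum the shares were 11.4% higher and 12.4% lower with fluvastatin, and 14.7% and 17.2% with MBV. Eef1g, a subunit of the elongation factor complex, rose by 0.28 ± 0.07 and 0.23 ± 0.04, and its call with fluvastatin was lost without fluvastatin replicate 2 or 3 (adjusted p of up to 0.0671). Npm1, a nucleolar chaperone, fell by 0.20 ± 0.05 and 0.27 ± 0.05, and its call with fluvastatin was lost without PBS replicate 1 or 3 or fluvastatin replicate 3 (adjusted p of up to 0.101). Of 31 genes of ribosome biogenesis 3 were called lower with fluvastatin (9.68%, near the background) and 7 with MBV (22.6%), and the medians were -0.04 and -0.06. DESeq2 called 3 lower with fluvastatin and 5 with MBV. None was called higher by edgeR or DESeq2, and 2 and 3 were higher at an unadjusted p under 0.05. Utp20, of the small-subunit processome, fell by 0.36 ± 0.07 and 0.61 ± 0.07, and Nop58, a core protein of box C/D particles, fell by 0.30 ± 0.06 and 0.33 ± 0.07. Of 13 genes of RNA polymerase I and its factors, 1 was called higher and 2 lower with fluvastatin, and 2 lower with MBV (15.4% lower in each).

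Among 18 genes of mTORC1 signalling and TOP mRNA control, 5 were called higher and 3 lower with fluvastatin (27.8% and 16.7%) and 4 higher and 5 lower with MBV (22.2% and 27.8%), with medians of 0.07 and 0.09. Larp1, which binds the TOP tract, rose by 0.34 ± 0.04 and 0.37 ± 0.04 (edgeR adjusted p = 0.000967 and 0.000633). Rheb, the GTPase that activates mTORC1, fell by 0.44 ± 0.06 and 0.43 ± 0.05. Eif4ebp1, a repressor of cap-dependent translation, was at 2.08, 1.71 and 2.96 CPM in PBS and 5.19, 6.90 and 2.48 CPM in MBV (1.10 ± 0.35, edgeR adjusted p = 0.0439). MBV replicate 3 lay inside the PBS range, and the call was lost without PBS replicate 1 or 2 or MBV replicate 1 or 2 (adjusted p of up to 0.139). Between MBV and fluvastatin no gene of these 4 lists was called by edgeR or DESeq2, and 6 of the 79 were at an unadjusted p under 0.05.

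Mitochondria have ribosomes of their own, whose proteins are encoded by another set of nuclear genes. Of 78 mitochondrial ribosomal protein genes 6 were called lower with fluvastatin (7.69%) and 21 with MBV (26.9%), with medians of -0.04 and -0.11. DESeq2 called fewer of them lower, 3 with fluvastatin and 11 with MBV. None was called higher by edgeR, where 3 and 1 were higher at an unadjusted p under 0.05 and DESeq2 called 0 and 1 higher. Of 76 nuclear genes for subunits of oxidative phosphorylation, 4 were called higher and 30 lower with fluvastatin (39.5% lower), and 51 lower with MBV (67.1%), with medians of -0.15 and -0.29. The difference between these lists and the members was not tested.

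Structural features that the rule did not use were also looked at in the members, and their shares over all genes were not counted. Small nucleolar RNA genes lie inside 29 of the 77 members on the same strand, 56 such genes in all. Of the members called higher 5 of 16 held one with fluvastatin and 5 of 12 with MBV, and of those called lower 2 of 4 and 5 of 19. The median log2 fold change of members with and without such a gene was 0.07 and 0.07 for fluvastatin, and -0.02 and -0.05 for MBV. A named pseudogene exists for 61 members. Of the 61, 14 were called with fluvastatin and 26 with MBV, and of the 16 without one, 6 and 5. The counting of reads shared between a gene and its copies is not given in the sources used here, so the split of reads within such families is uncertain. The same holds for 19 members whose span overlaps another gene, 3 of them on the same strand, Rpl13a, Rpl13 and Rps10.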

How the data were processed

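Whole-retina total RNA libraries were sequenced as 75-base read pairs, and the authors processed the reads with CLC Genomics Workbench against GRCm39. The deposited tables hold raw counts per gene, without normalization, beside the authors' own fold changes and p-values, which were not used. Count columns naming their library were used for 9 libraries; 6 columns without a library name were not used. The members and lists were chosen with earlier results of these data known. Genes with a count in any of 6 libraries were tested for each pair of groups with edgeR 4.0.16 (R 4.3.3; TMM factors, quasi-likelihood test, Benjamini-Hochberg adjustment, threshold 0.05), without a block, and the code was tested on simulated data. CPM values are TMM-scaled. DESeq2 1.42.0 and other settings were alternatives. The background of genes at the count minimum was chosen after seeing the data. Named genes were the 5 largest rises and falls among calls per comparison (by size where fewer than 3 were called), the 5 highest and lowest members per kilobase, paralog pairs, members with known roles and subunit genes outside the rule, of which 1 is not reported here. Genes named from other lists, members named for overlap and retrocopies were chosen after their values were seen. Nothing states whether counting used strand. Start windows came from RefSeq (GRCm38.p6), gene models from GENCODE M39.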

Additional observations from a re-analysis of the deposited data

How the results depend on the processing

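The members called numbered 20 for fluvastatin against PBS and 31 for MBV against PBS. With DESeq2 they numbered 23 and 29, with library totals 20 and 26, with a minimum of 10 counts in 2 libraries 19 and 32, and with one fit of all 9 libraries 20 and 21. A fold change of at least 2 left 0 members in both. Leaving out 1 library gave 11 to 35 calls for fluvastatin and 16 to 34 for MBV, and the median log2 fold change of the members ran from 0.02 to 0.14 and from -0.06 to 0.02. For MBV against fluvastatin no alternative called a member by edgeR or DESeq2, and the median ran from -0.16 to -0.03. With the replicate block 22, 27 and 0 members were called in the 3 comparisons. Libraries of different groups with the same replicate number deviated together with r of -0.36 to 0.15, so replicate numbers are not taken to pair the samples. Of the 51 calls against PBS, 26 were lost in at least 1 fit that left out a library and 15 under at least 1 other setting. With fluvastatin the latter was Rps14 under the count minimum (adjusted p = 0.0543). With MBV 3 were lost under DESeq2 (Rpl3, Rps15a and Rps27l, adjusted p of 0.0508 to 0.0618), 8 with library totals (0.0517 to 0.13), 11 with one fit of all 9 libraries (0.056 to 0.247) and 4 with the replicate block (0.0605 to 0.102). No call changed direction. The planned comparisons of the combined treatment, both main effects and the contrast of library number sets were not run. With 3 libraries a group, differences of the size of their standard errors, 0.06 to 0.08 on the log2 scale at the median, cannot be resolved, and neither comparison with PBS analysed here lies within one library number set.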

Other observations

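Retrocopies outside the name rule, chosen after their values were seen, held counts that bear on 3 members. Rpl10-ps3 held 1484, 1264 and 1763 counts in PBS, 1126, 1369 and 896 in fluvastatin and 1470, 1385 and 1194 in MBV, where Rpl10 itself held 1428, 1376 and 959, then 715, 963 and 1221, then 975, 551 and 939. The retrocopy took 42.3% to 71.5% of the counts on the pair, and Rpl10 had the largest coefficient of variation of all members in each group, 13.7%, 29.4% and 22.9%. The summed level of the pair was 90.1 to 103 CPM in PBS, 75.8 to 89.8 in fluvastatin and 88.4 to 91.2 in MBV, a narrower range than that of Rpl10 alone. The split of reads between Rpl10 and Rpl10-ps3 is uncertain, so the values of Rpl10 describe this count column only.

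Rps27rt held 18, 14 and 35 counts in PBS, 73, 109 and 74 in fluvastatin and 80, 14 and 67 in MBV. It was called higher with fluvastatin (log2 fold change 2.11 ± 0.32, edgeR adjusted p = 0.00233). With MBV it was 1.45 ± 0.55 higher and was not called (edgeR adjusted p = 0.0862). Rps27 held 1189 to 2206 counts per library and was not called with fluvastatin (-0.20 ± 0.07, edgeR adjusted p = 0.0692). Summed with Rps27rt, Rps27 was at 66.2 to 75.0 CPM in PBS, 58.7 to 68.8 in fluvastatin and 54.9 to 63.1 in MBV. Rpl9-ps6 held 41, 50 and 68 counts in PBS, 12, 13 and 16 in fluvastatin and 27, 13 and 38 in MBV, and was called lower with fluvastatin (-1.75 ± 0.32, edgeR adjusted p = 0.00483). With MBV Rpl9-ps6 was -0.81 ± 0.37 and was not called (edgeR adjusted p = 0.15). Its parent Rpl9 was not called with either treatment, with log2 fold changes of 0.12 ± 0.08 for fluvastatin and 0.01 ± 0.04 for MBV. These retrocopies took at most 6.09% and 1.53% of the counts on their pairs.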
